A study of Mus musculus with 12 samples.

Results

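Across the 12 ATAC-seq libraries of a mouse myeloid progenitor line, 1271 regions of open chromatin were at least 2500 bp wide and held a called peak in every library. They were found by joining the peaks of all libraries that overlapped by at least 1 bp. The joining gave 73156 union regions, of which 33368 were called in all 12 libraries, and the 1271 are those of the 33368 that reached the width limit. Another 23 regions were as wide but were missed in at least 1 library. The regions were thus chosen by measured values, the width and presence of the called peaks. Their width, summit number and level of signal are given as descriptions without a test.

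ATAC-seq reports where a transposase can cut genomic DNA. The cells were granulocyte-monocyte progenitors from C57BL6 bone marrow that carry ER-HOXA9, a fusion of the estrogen receptor and the leukaemia protein HOXA9, and all groups were grown with beta-estradiol. Each of the 6 groups had 2 libraries: untreated cells at day 0 (Day0), and cells at day 2 after DMSO (Vehicle), 200 nM GSK-LSD1 (LSD1i), 5 uM mercaptopurine (6MP), 5 uM cerulenin (CER) or all 3 agents at those doses (Combo). GSK-LSD1 inhibits the histone demethylase LSD1, mercaptopurine is a purine analogue, and cerulenin inhibits fatty acid synthase. No label says whether the libraries of a group came from separate cultures, so p-values measure the spread between these libraries. The estrogen receptor part makes the fusion depend on the hormone.

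Open chromatin usually takes the form of short nucleosome-free stretches at promoters and enhancers. Wide stretches are known from promoters with large CpG islands, from regulators of cell identity and from clusters of neighbouring enhancers. LSD1 removes methyl groups from lysine 4 of histone H3 and works with CoREST and with the repressors GFI1 and GFI1B at myeloid enhancers.

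The promoter sequences of 6 of these regions are printed to show how much the DNA under them differs in composition. They were chosen after the values were seen. Each is the 250 bases before the start in RefSeq on GRCm38.p6, written 5′ to 3′ on the strand of the gene. Capitals mark matches, on either strand, to 8 motifs: the CCAAT box, GC box, TATA box, AP-1 site, cyclic AMP response element, E box, ETS site and RUNX site, whose letters are given with their frequencies further on. Neighbouring or overlapping matches run together. The first 3 belong to the widest regions with a coding start: Bbc3 (chr7:16310181-16310430, plus strand), Gadd45g (chr13:51846425-51846674, plus strand) and Junb (chr8:84978749-84978998, minus strand).
Bbc3: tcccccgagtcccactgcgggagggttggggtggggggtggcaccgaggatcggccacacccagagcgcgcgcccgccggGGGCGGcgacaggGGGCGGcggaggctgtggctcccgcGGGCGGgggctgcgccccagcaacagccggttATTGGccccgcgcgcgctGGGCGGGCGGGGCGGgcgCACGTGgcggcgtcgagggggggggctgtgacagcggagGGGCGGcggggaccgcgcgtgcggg
Gadd45g: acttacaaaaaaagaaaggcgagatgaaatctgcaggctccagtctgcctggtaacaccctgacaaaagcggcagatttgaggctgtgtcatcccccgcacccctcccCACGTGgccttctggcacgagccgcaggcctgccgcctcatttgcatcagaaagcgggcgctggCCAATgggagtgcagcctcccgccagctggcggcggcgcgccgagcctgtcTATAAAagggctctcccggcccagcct
Junb: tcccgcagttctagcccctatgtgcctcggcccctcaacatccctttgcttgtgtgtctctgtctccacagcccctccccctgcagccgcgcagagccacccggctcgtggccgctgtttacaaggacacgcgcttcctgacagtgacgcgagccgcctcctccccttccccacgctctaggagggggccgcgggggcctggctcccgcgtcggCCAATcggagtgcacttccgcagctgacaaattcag
The other 3 belong to regions that changed with LSD1 inhibition: Mmp8 (chr9:7558179-7558428, plus strand), Emp1 (chr6:135362681-135362930, plus strand) and Rnase11 (chr14:51050164-51050413, minus strand).
Mmp8: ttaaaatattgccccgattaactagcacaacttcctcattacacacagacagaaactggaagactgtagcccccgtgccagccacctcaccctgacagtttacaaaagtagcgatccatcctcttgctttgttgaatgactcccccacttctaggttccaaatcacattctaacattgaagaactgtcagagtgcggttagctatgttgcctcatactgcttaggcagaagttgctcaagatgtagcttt
Emp1: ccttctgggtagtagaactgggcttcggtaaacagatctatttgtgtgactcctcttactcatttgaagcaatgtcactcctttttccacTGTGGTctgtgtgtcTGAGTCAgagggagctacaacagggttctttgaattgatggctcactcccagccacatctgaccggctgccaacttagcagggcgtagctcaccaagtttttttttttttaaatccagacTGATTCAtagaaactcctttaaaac
Rnase11: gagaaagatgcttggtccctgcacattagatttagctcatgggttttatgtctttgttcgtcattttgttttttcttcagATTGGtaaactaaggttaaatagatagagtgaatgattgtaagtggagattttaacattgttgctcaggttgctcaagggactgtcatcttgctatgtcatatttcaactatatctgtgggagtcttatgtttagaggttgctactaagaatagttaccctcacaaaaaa
The first set held 37, 16 and 20 CG dinucleotides in the order printed, and the second held 4, 3 and 1. The GC content was 81.6%, 62.0% and 66.4% in the first set against 44.8%, 44.4% and 35.6% in the second. The Bbc3 stretch held 7 GC boxes, and the Emp1 stretch held 2 AP-1 sites and 1 RUNX site. The Mmp8 stretch held none of the 8 motifs.

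The median wide region measured 2803 bp, against 1272 bp for all 33368 common regions. Its quartiles were 2631 and 3109.5 bp. Widths of 3000 bp or more were found in 408 regions, of 4000 bp or more in 45, and of 5000 bp or more in 3. The regions just inside the limit lay at the starts of B4galt7 and Mvd and near Smim20, each 2500 bp wide. Just outside it were the start of Pik3cd and a region near Klrb1f, both 2498 bp, and a region near Psmd4 of 2499 bp. Widths thus ran on smoothly across the limit.

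**Figure D1:**
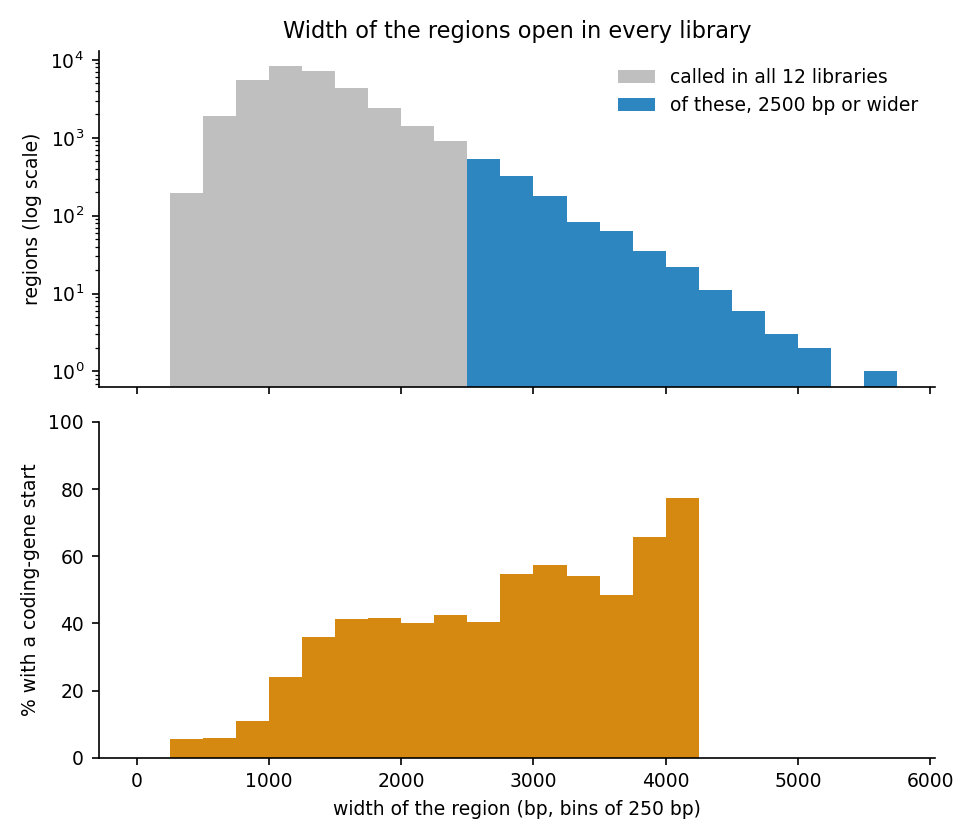
Upper panel, number of regions (log scale) by width in bp, in bins of 250 bp, for the 33368 regions called in all 12 libraries (grey) and the 1271 wide ones (blue). Lower panel, percent of the regions in each bin of 20 or more that hold the start of a protein-coding gene, which was 40.3% from 2500 to 2750 bp and 57.5% from 3000 to 3250 bp.

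The widest region, 5541 bp at chr7:16308736-16314276, held the start of Bbc3, which encodes the p53-induced cell death protein PUMA. Gadd45g, a stress-response gene, followed with 5176 bp (chr13:51843942-51849117), and that region held the gene from end to end. A region of 5028 bp lay inside Mapt, the gene of the tau protein (chr11:104315659-104320686), away from the RefSeq start used here, though the authors' deposited table annotates it as a promoter of Mapt. Junb, which encodes an AP-1 subunit, was also held whole in its region of 4948 bp (chr8:84975619-84980566). Pcdh7, a protocadherin gene, had 4943 bp, and the corepressor gene Bcor had 2 regions among the 20 widest, of 4891 and 4650 bp, both inside the gene by the RefSeq start. The authors' deposited table places the first in an intron and the second at a promoter of Bcor. Gse1, which encodes a protein of the LSD1 and CoREST complex, had 4744 bp at its start. Cpt1a, the gate of fatty acid import into mitochondria, had 4673 bp. Gfi1, the repressor that recruits LSD1, had 4327 bp (chr5:107723753-107728079).

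Starts of protein-coding genes lay in 630 of the 1271 wide regions, 49.6%, against 29.0% of all common regions. A wider region holds more of everything, so the strongest summit alone was also placed. It lay within 1000 bp of a coding start in 547 wide regions, 43.0%, against 29.0%. A further 278 wide regions (21.9%) lay inside a coding gene away from its start, 103 (8.10%) at or in a long non-coding RNA gene, and 260 (20.5%) between genes. Starts of 2 or more coding genes shared 60 regions, and 3 regions held 3 starts. Opposed starts on both strands were about as frequent as elsewhere, at 9.05% of the 630 against 9.13% of the 9669 common regions with a start. Whole coding genes were inside 21 of the 630 (3.33%) and inside 64 of the 9669 (0.662%). Of the wide regions, 890 had no other within 100000 bp, and the longest runs held 6.

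At the 570 wide regions with a single coding start, the open stretch reached a median of 1283 bp upstream and 1694.5 bp downstream. The downstream side was the longer in 57.5% of them, and in 65.3% of the other common regions with 1 start. The strongest summit lay within 250 bp of the start in 61.4% of the wide regions, against 86.4% of the other common ones. In 109 wide regions it lay further downstream and in 111 further upstream.

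Between 2.82 and 3.17 summits per wide region were called in 11 of the libraries, and 3.80 in 6MP replicate 1. Over all common regions the mean was 1.31 to 1.53. Trim8, the start of a ubiquitin ligase gene, had the most, a mean of 7.42, and the largest number in any library and region was 11. The region near Max had the fewest, a mean of 1.08. Summits within 150 bp of each other over the libraries were taken as 1 position, which gave 6195 positions in the wide regions. Of these, 35.8% had a summit in all 12 libraries, against 56.8% of positions in all common regions. In 672 wide regions 2 positions were constant in this sense, in 426 a single one, in 132 there were 3, and in 29 there was none.

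The strongest summit of a wide region often sat elsewhere from library to library. Its positions lay within 200 bp over all 12 libraries in 51.5% of the wide regions, against 75.3% of all common regions. They were spread over more than 1000 bp in 329 wide regions, 25.9%, against 2.92%. At Junb they spanned 3332 bp and at Bbc3 323 bp. Positions with a summit in all 4 libraries that received GSK-LSD1 and in none of the other 8 numbered 6, 0.0969% of the 6195. The reverse was found at 1 (0.0161%), inside Armc9. All common regions, the wide ones among them, held 30 (0.0491% of 61097 positions) and 4 (0.00655%). With 6195 positions compared, no test was made of these.

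Each library had a single peak in the region at 502 wide regions, and each had 2 or more peaks at 16. A single peak need not span the whole region. In 252 regions at least 2500 bp lay under peaks in every library. In 242 no library alone reached 2500 bp, so the width there came from joining peaks of different libraries. The median length under peaks was lowest in 6MP replicate 2, at 2269 bp, and highest in CER replicate 1, at 2590 bp. By group it was 2452.5 bp ± 149 (SD, n = 2) in Day0, 2500 bp ± 29.7 in Vehicle and 2394 bp ± 82.0 in LSD1i. In 6MP it was 2320.5 bp ± 72.8, in CER 2452 bp ± 195 and in Combo 2486.5 bp ± 6.36. The library values of Day0 and LSD1i overlapped. Both Vehicle libraries (2521 and 2479 bp) lay above both of LSD1i (2336 and 2452 bp) and both of 6MP (2372 and 2269 bp). The same held over all common regions, with 1041 and 1016 bp in Vehicle, 961.5 and 1011 bp in LSD1i, and 878 and 917 bp in 6MP. No difference was tested.

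**Figure D2:**
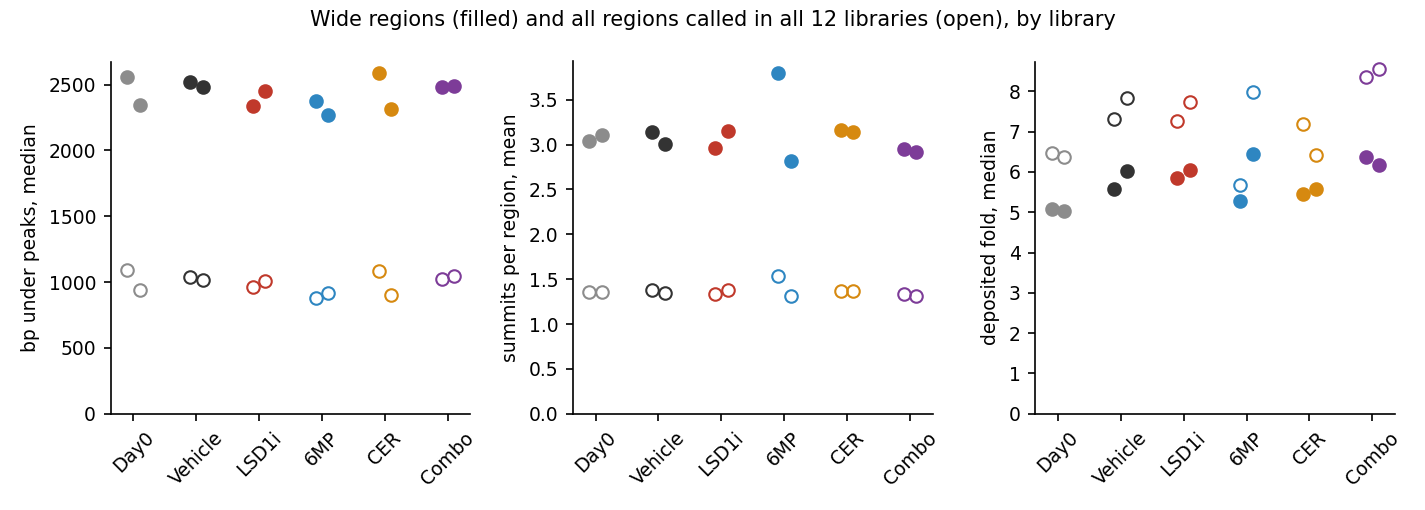
For each library, by group: median bp under called peaks, mean number of summits per region, and median deposited fold of the strongest summit over its local background, for the wide regions (filled) and all regions called in all 12 libraries (open). The wide regions are longer and have more summits in every library, and have the lower fold in every library.

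Signal was taken at the highest summit of a region in each library, as the fragment pileup over the depth of the library, and is given as a multiple of the median of that library's 33368 common regions. The median wide region stood at 2.13 times. The medians of the 12 libraries ran from 1.89 in LSD1i replicate 2 to 2.33 in CER replicate 1. The fold over local background in the deposited lists went the other way. Its median in the wide regions was 5.03 to 6.43 over the libraries, and in all common regions 5.67 to 8.56. Each library had the lower value in the wide regions.

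Among positions, wide regions at coding starts had a median signal of 2.83, against 2.71 for all common starts. Away from starts the gap was larger: 1.43 against 0.701 in gene bodies and 1.19 against 0.632 between genes. Pxn, which encodes the adhesion adaptor paxillin, had the highest mean signal, 9.91, with library values from 7.61 in 6MP replicate 1 to 15.4 in 6MP replicate 2. Kmt2e followed with 8.98 and Abhd11 with 8.77. The lowest was a region inside Atp8b4, at 0.203, so some wide regions were low along their whole length. Replicates differed in the wide regions by a median SD of 0.162 on the log2 scale within groups, against 0.179 in all common regions.

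Regulatory gene lists held larger shares of wide regions than coding genes as a whole, of which 690 of the 10363 with a start open in all 12 libraries (6.66%) lay in a wide region. Among progenitor and myeloid transcription factors it was 15 of 38 (39.5%): Runx1, Cebpa, Cebpb, Cebpe, Gfi1, Irf2, Myb, Myc, Meis1, Ikzf2, Zeb2, Hlf, Hhex, Elf4 and Stat5a. Myb, needed for progenitor growth, had 3514 bp, Hlf 3533 bp, Cebpe, a granulocyte factor, 3336 bp, and Runx1 3145 bp. AP-1, immediate early and feedback genes gave 12 of 38 (31.6%), with Ier2 at 4059 bp, the serine kinase gene Pim1 at 3939 bp and Jun at 3579 bp. Kruppel-like factors gave 4 of 11, among them Klf10 with 3570 bp. The LSD1 and CoREST list gave 4 of 15: Rcor2, Phf21a, Gse1 and Gfi1. Replication-dependent histone genes gave 13 of 50, but these lie close together and share regions, as H1f1 and H4c1 did in 4041 bp.

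Lists of basic functions lay nearer to the share of all coding genes. Ribosomal protein genes had 3 of 78 starts in wide regions (3.85%), housekeeping genes 1 of 31, Gapdh, and purine and one-carbon metabolism 0 of 21. The stress response list had 1 of 20, Ddit3. Shares between these and the regulators were found for the cell cycle, with 3 of 25 (Ccnd2, Cdk6 and E2f3), and for fatty acid and sterol metabolism, with 2 of 18 (Scd2 and Cpt1a). Histone modifiers had 7 of 47, p53 targets 3 of 16 and cytokine receptors 3 of 22. Primary granule genes had only Mpo, at 3186 bp, among 5, and mature neutrophil and monocyte genes had Mmp8 and Cd44 among 11. The Hoxa genes had no start in a region common to all libraries. These shares are descriptions.

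**Figure D3:**
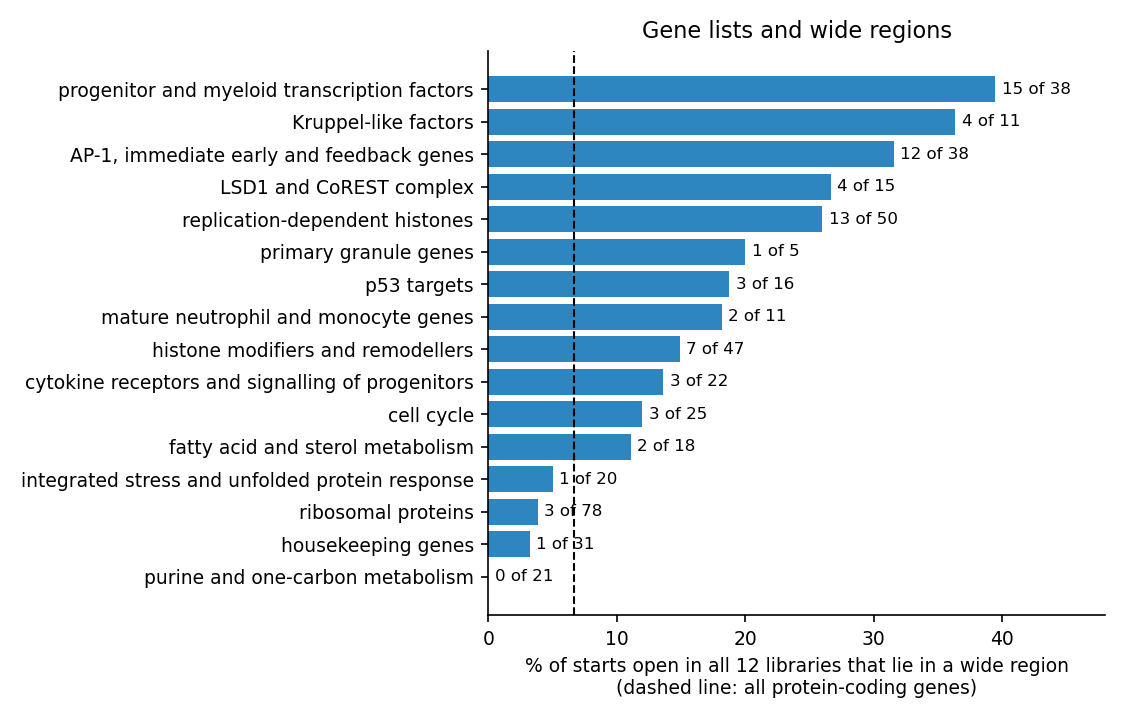
Percent of the gene starts open in all 12 libraries that lie in a wide region, by gene list, with the counts beside each bar. The dashed line marks all protein-coding genes at 6.66%, and transcription factor, Kruppel-like and immediate early genes stand at 31.6% to 39.5%.

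In composition, the 561 RefSeq promoters in wide regions, each running from 250 bases before to 50 after the start, had a median GC content of 63.3%. The value was 61.7% in the 8302 promoters of other common regions and 56.7% in all 17491. The ratio of observed to expected CG dinucleotides went the other way between the first 2 sets. Its median was 0.779 in wide, 0.796 in other common and 0.588 in all promoters. It reached 0.6 in 74.5%, 79.1% and 49.1% of them. In the same order of sets, the ETS site, searched as CCGGAAG, was found in 13.0%, 21.5% and 12.2% of promoters. The GC box of SP and Kruppel-like factors, searched as GGGCGG, was found in 70.1%, 68.9% and 47.1%. For the TATA box, searched as TATAAA, the shares were 8.91%, 5.90% and 13.1%. For the RUNX site, searched as TGTGGT, they were 8.20%, 12.6% and 15.2%. The AP-1 site was searched as TGANTCA and found in 5.35%, 4.23% and 6.92%. The cyclic AMP response element, searched as TGACGTCA, was rare, with 2.32%, 3.78% and 2.35%. The E box, searched as CACGTG, stood in 9.09%, 11% and 7.88%, and the CCAAT box, searched by those letters, in 34.8%, 39.6% and 38.9%. The widest gap between wide and other common promoters was at the ETS site, and no gap was tested. A match is a description of the letters, and no binding was measured.

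Of the 12 markers of granulocyte-monocyte progenitors, 9 had a start open in all 12 libraries, including Mpo, Kit, Cd34 and Cebpa. Elane, Prtn3 and Csf1r had none in any library. No T cell marker start was open in any library, of 6. Starts of Cd79a and Ebf1 (B cell), Pecam1 and Pdgfrb (stromal and endothelial) and Pf4, Itga2b and Gp9 (megakaryocyte) were open in all 12, and their part in the results was not tested.

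With limma on the log2 summit signal over all 33368 regions, and an adjusted p of at most 0.05, 19 wide regions opened (1.49%) and 53 closed (4.17%) in LSD1i against Vehicle. Over all regions tested 3.5% opened and 2.4% closed. Signal also decides whether and how wide a peak is called, so a region can reach 2500 bp through the libraries where it is high. Calls among the wide regions, here and in the other comparisons, are thus not independent of how the regions were chosen. The authors' deposited table, on a scaling that is not stated, lists 947 wide regions as closed, beside 46.8% of all common regions. It lists 22 as opened, beside 3.77%. The median difference of the wide regions was -0.16 on the log2 scale, and that of all regions -0.08. With a centring that removes a trend with the signal level, the wide median was -0.03, beside -0.00411 over all regions. The counts were then 28 opened and 44 closed. Over all regions that centring called 1336 opened and 752 closed. The calls rest on the centring: with scaling by depth alone only the closing region of Rnase11, described further on, was called, and on the deposited fold ratio 0. Over all regions, depth scaling called 36 opened and 7 closed, and the deposited fold ratio 4 and 3. The calls rest on the libraries too, and so does the larger number of closing regions. That larger number was not kept in every fit with 1 library left out. The wide median was -0.21 without LSD1i replicate 1, beside -0.10 over all regions, and -0.11 without LSD1i replicate 2, beside -0.04. It was -0.13 without Vehicle replicate 1, beside -0.07, and -0.16 without Vehicle replicate 2, beside -0.07.

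**Figure D4:**
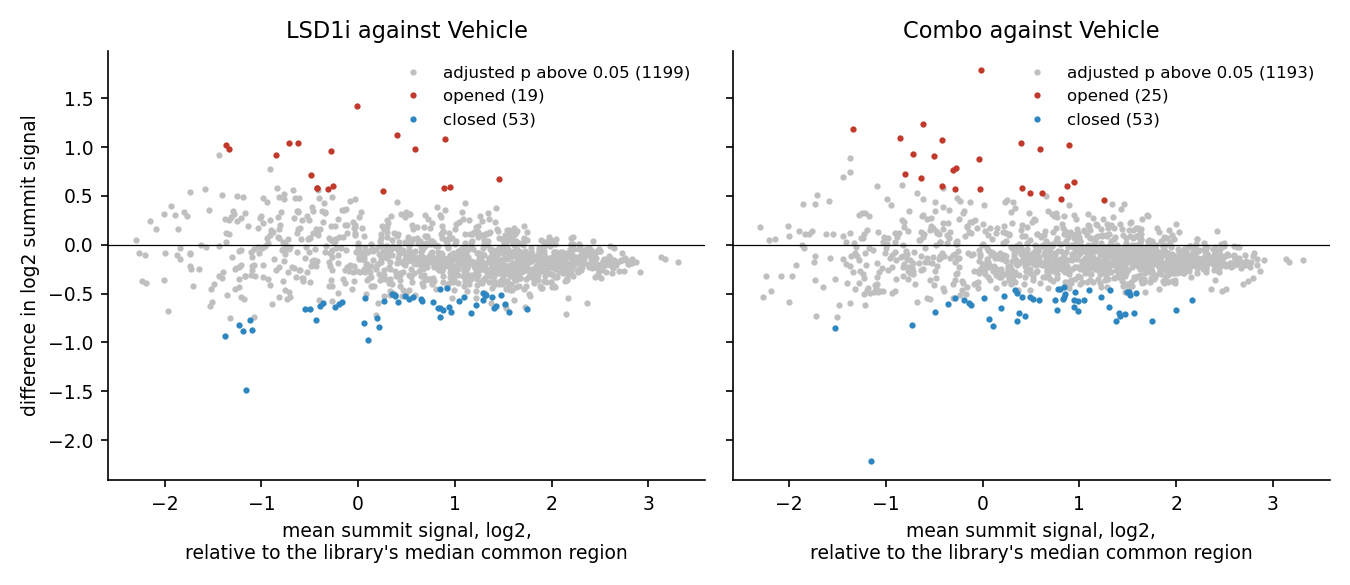
Difference in log2 summit signal from Vehicle (vertical axis) against mean log2 summit signal (horizontal axis) for each of the 1271 wide regions, in LSD1i and in Combo. Red points opened and blue points closed at an adjusted p of at most 0.05 (limma), 19 and 53 in LSD1i and 25 and 53 in Combo.

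Mmp8, the neutrophil collagenase gene, had the largest rise. The signal of its region of 2558 bp, which holds the start (chr9:7556429-7558986), was 0.705 and 0.671 in Day0, 0.632 and 0.657 in Vehicle, 1.69 and 1.77 in LSD1i, 0.649 and 0.625 in 6MP, 0.923 and 0.820 in CER, and 2.44 and 2.02 in Combo. All 4 libraries with GSK-LSD1 lay above all 8 others. The difference from Vehicle was 1.43 ± 0.155 (log2, SE) in LSD1i, adjusted p = 3.36e-07 by limma. With depth scaling it was 1.27 and with the deposited fold ratio 0.36, and neither passed the test, nor did any other opening wide region in LSD1i under these settings. The authors' deposited table lists a log2 fold of 1.12 there.

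Emp1, which encodes an epithelial membrane protein, opened at its start (chr6:135362352-135364980). Its signal was 0.333 and 0.425 in Day0, 0.466 and 0.529 in Vehicle, 1.1 and 0.949 in LSD1i, 0.676 and 0.702 in 6MP, 0.336 and 0.483 in CER, and 0.963 and 0.933 in Combo. The LSD1i and Combo libraries were again the 4 highest. The difference was 1.04 ± 0.203 in LSD1i (limma adjusted p = 0.00137).

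Tcf7l2, a transcription factor of the Wnt pathway, opened within the gene at chr19:55865621-55868283, which the authors' deposited table annotates as intron 4 of 12. The signal was 1.02 and 1.25 in Vehicle, 2.16 and 2.29 in LSD1i, and 2.24 and 2.23 in Combo, with the other 6 libraries between 1.12 and 1.43. The rise in LSD1i was 0.98 ± 0.142 (limma adjusted p = 2.98e-05). A region near Efna5 rose by 1.12, one near Gtf3c5 by 1.08, one inside Csad by 1.04 and one inside Bach2, a B lymphoid repressor, by 0.96. Each of these 4 also passed in LSD1i by limma at an adjusted p of at most 0.05.

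Rnase11, a gene of the ribonuclease A family, had the largest fall. Its region of 2839 bp (chr14:51047884-51050722) had a signal of 0.713 and 0.630 in Day0, 0.752 and 0.821 in Vehicle, 0.336 and 0.234 in LSD1i, 0.743 and 0.519 in 6MP, 0.503 and 0.539 in CER, and 0.181 and 0.159 in Combo. The 4 libraries with GSK-LSD1 were the lowest. The difference was -1.49 ± 0.234 in LSD1i (limma adjusted p = 9.37e-05) and -1.64 with depth scaling. The authors' deposited table gives -1.70.

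The wide region inside Mapt also closed. Its signal was 1.62 and 1.82 in Day0, 1.36 and 1.21 in Vehicle, 0.733 and 0.788 in LSD1i, 1.20 and 1.29 in 6MP, 1.40 and 1.22 in CER, and 0.738 and 0.909 in Combo. The 4 libraries with GSK-LSD1 were again the lowest. The LSD1i difference was -0.75 ± 0.153 (limma adjusted p = 0.00213), and on the deposited fold ratio it was -0.11. A region near Itga5, the gene of the fibronectin receptor subunit, fell by 0.80 and one near Fam126a by 0.84.

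**Figure D5:**
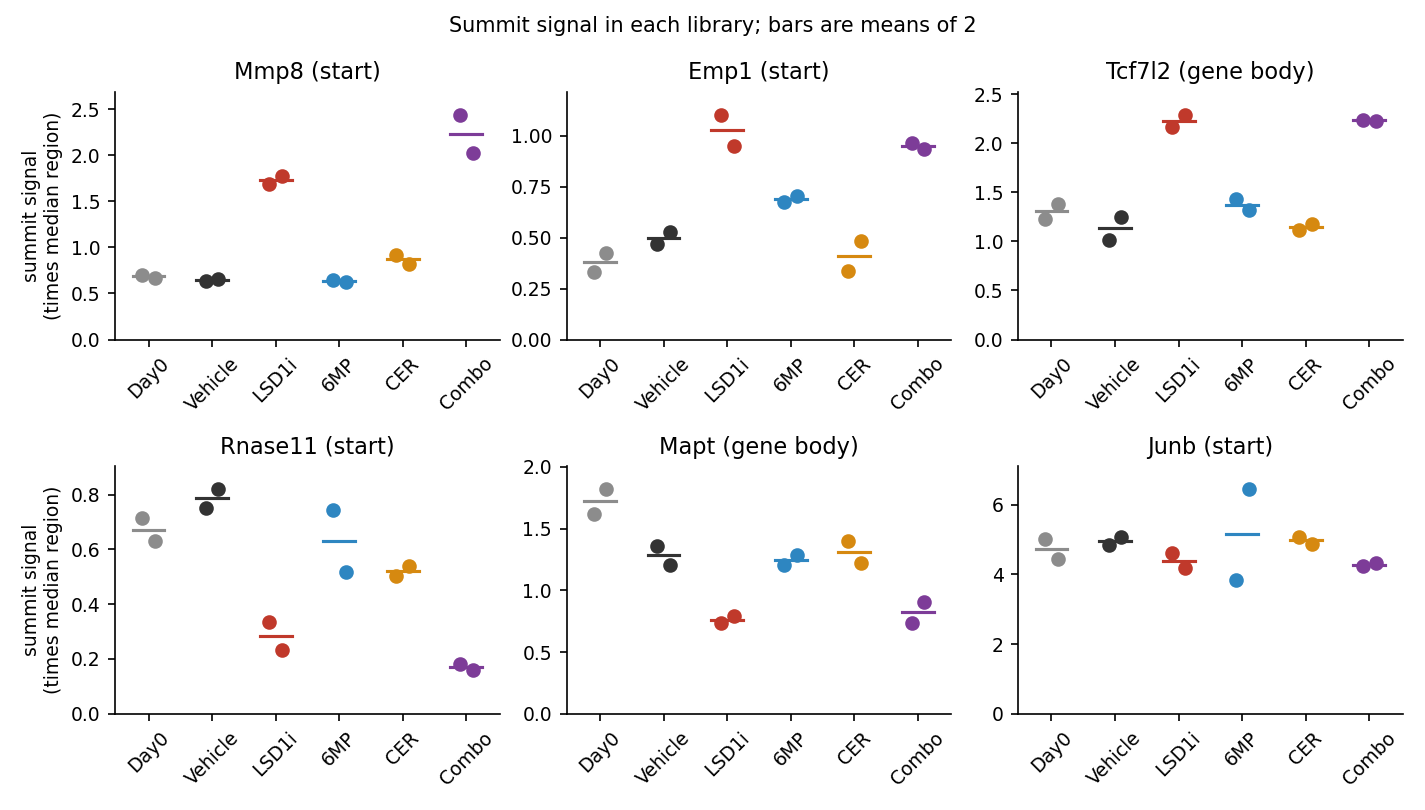
Summit signal, as a multiple of the library's median common region, in each of the 2 libraries of every group (points) with the group mean (bar), for 6 wide regions. Mmp8, Emp1 and Tcf7l2 are highest in the LSD1i and Combo libraries, Rnase11 and Mapt are lowest there, and Junb lies between 3.84 and 6.46 with both extremes in 6MP.

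Among the 18 wide regions of progenitor and myeloid transcription factors, 15 at starts and 3 inside the genes, 0 were called in LSD1i. Their differences ran from -0.37 to 0.11 with a median of -0.16, the same as over all wide regions. Of the 12 of AP-1, immediate early and feedback genes 0 were called, with a median of -0.18, and of the 5 of Kruppel-like factors 1 closed. With 3.5% of all regions opened and 2.4% closed, counts this small do not set these lists apart. Gfi1 had signals of 4.79 and 4.49 in Vehicle and 5.09 and 4.69 in LSD1i, a difference of 0.08 ± 0.177 (limma adjusted p = 0.828). By position, 18 of the 630 wide regions at coding starts closed (2.86%) and 4 opened (0.635%), where 1.74% and 0.445% of all common regions at starts did. In gene bodies 20 of the 278 closed (7.19%) and 8 opened (2.88%), where 3.27% and 4.09% did.

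In Combo against Vehicle 25 wide regions opened and 53 closed, where 4.98% and 3.54% of all regions did. Both comparisons use the same Vehicle libraries. Mmp8 rose by 1.79 ± 0.155 (limma adjusted p = 3.28e-09), Csad by 1.24, Pdzd2 by 1.09, Pi15 by 1.07 and Emp1 by 0.93. Rnase11 changed by -2.21 ± 0.234 (limma adjusted p = 1.02e-07), the region inside Mapt by -0.65 and a region within Gse1 by -0.79. Evi5 opened in Combo by 0.91 (limma adjusted p = 0.00285), with 0.639 and 0.543 in Vehicle and 1.0 and 1.23 in Combo. In LSD1i it differed by 0.25 (limma adjusted p = 0.509), and the difference between the 2 drug groups was not tested. Scaling by depth alone left 4 opened and 1 closed wide region in Combo, with 513 opened and 9 closed over all regions. It moved the wide median from -0.15 to 0.07 and that of all regions from -0.10 to 0.12. The wide median was -0.16 without Combo replicate 1, beside -0.11 over all regions, and -0.13 without Combo replicate 2, beside -0.09. Fewer regions were called in both of these fits, among the wide ones and over all.

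Neither mercaptopurine nor cerulenin alone gave a wide region past the threshold. In 6MP against Vehicle limma called 0 wide regions, against 0% opened and 0% closed over all regions. An unadjusted p under 0.05 was found in 20 of the 1271, beside 1661 of all 33368. In CER against Vehicle it called 0, against 0.156% opened and 0.201% closed. There 93 of the 1271 had an unadjusted p under 0.05, beside 4197 of all 33368. Near Dgat2, which encodes an enzyme of triglyceride synthesis, the signal was 0.241 and 0.236 in Vehicle and 0.462 and 0.393 in CER (difference 0.84 ± 0.297, limma adjusted p = 0.196), and near Fndc7 the difference was -0.79 (limma adjusted p = 0.0632). Without Vehicle replicate 1, 31 wide regions opened in CER and 4 closed, beside 692 and 541 of all 33368.

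From Day0 to Vehicle 1 wide region opened and 0 closed, where 0.0959% of all regions opened and 0.012% closed. It lies inside Apbb2, an adaptor of the amyloid precursor protein, at chr5:66322768-66325763. Its signal was 0.620 and 0.630 in Day0 and 1.06 and 1.19 in Vehicle, and stayed between 0.888 and 1.24 in the other 8 libraries. The difference was 0.85 ± 0.154 (limma adjusted p = 0.0145). The call was lost, with 0 wide regions called, without each of the other 3 libraries, with the 4 libraries alone, with depth scaling, with the mean over the summits and with the deposited fold ratio. Without Vehicle replicate 1, 6 wide regions opened and 64 closed, beside 557 and 754 of all 33368.

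Counts from the authors' deposited tables differed widely from these. The tables list only regions past an FDR of 0.05, on a scaling that is not stated. In LSD1i against Vehicle, the 947 closed made up 74.5% of the wide regions. In Combo 52 were opened, beside 9.16%, and 22 closed, beside 1.67%. In Vehicle against Day0 46 were opened, beside 1.95%, and 1 closed, beside 0.0569%. In CER 0 were listed in either direction, beside 0.003% opened and 0.108% closed. In 6MP 1042 were closed (82.0%), beside 51.5%, and 0 opened, beside 0%. Across the listed wide regions, Spearman's rho between the deposited fold and the signal difference of the same comparison was 0.709 over 968 regions in LSD1i and 0.895 over 74 in Combo, but -0.0841 over 1042 in 6MP. These correlations are across regions, which share libraries. With scaling by depth alone the 6MP libraries gave a median of -0.49 over the wide regions, beside -0.46 over all regions. Of the 1271 wide regions 6 were higher and 0 were called, beside 0 opened and 1 closed over all regions. The deposited table's median over its closed wide regions is -0.55, beside -0.57 over its closed common regions. The order of the regions thus differed between the table and the summits, and no single wide region is described as changed by mercaptopurine.

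A group of wide promoters differed between replicates in step with the library names. The names of 4 day 2 libraries end in the letter R (Vehicle replicate 1, 6MP replicate 2, CER replicate 1 and Combo replicate 2), 6 carry no letter, both LSD1i libraries among them, and both Day0 libraries carry P. What the letters stand for is not given in the sources used here. With the day 2 group in the same limma fit, 56 wide regions were higher in the R libraries (adjusted p of at most 0.05) and 1 was lower. Over all 33368 regions 1.66% were higher and 0.752% lower. This comparison was added after the values were seen. Of the 56, 53 held a coding start.

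Jak2, the kinase of cytokine receptors, shows the pattern at its start (chr19:29251099-29254098). Its signal was 6.20, 7.30, 6.80 and 5.04 in the R libraries of Vehicle, 6MP, CER and Combo. In the libraries of those groups without a letter it was 2.99, 3.47, 3.9 and 3.63. The LSD1i libraries had 2.59 and 2.68, and Day0 had 6.23 and 5.71. The difference for R was 0.85 ± 0.144 (limma adjusted p = 1.15e-06). Lcor, a corepressor gene, differed by 1.16, Phf21a, of the LSD1 and CoREST complex, by 0.86, the chromatin remodeller gene Chd7 by 0.77 and the transcription factor gene Ikzf2 by 0.72. The 44 RefSeq promoters of these regions had a median GC content of 76.8%, with quartiles of 73.3% and 81.3%, against 62.3% in the 517 promoters of the other wide regions. Its part in the difference was not tested. Both LSD1i libraries lack the letter, so the letter and the treatment are partly confounded there. In LSD1i against Vehicle 1 of the 57 was called, where 3.5% of all regions opened and 2.4% closed. With the letter R as a block 21 wide regions opened in LSD1i and 46 closed. Over all 33368 regions that block gave 1139 opened and 814 closed, beside 1167 and 801 without it.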

How the data were processed

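The regions and gene lists were chosen with earlier results of these data known. Per the submitters' processing notes, reads were handled with Trimmomatic 0.38, Bowtie2, SAMtools 1.9 and Picard 2.18.26, peaks were called with MACS2 2.1.2, and DiffBind was used, on mm10. Settings are not given in the sources used here. The deposited peak lists give 1 line per summit, with a score in whole numbers, a fold ratio to local background and p-values and q-values as -log10. The authors' deposited comparison tables give log2 levels and folds, p-values and FDR.

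Pileup was solved from the deposited fold ratio and -log10 p-value of each summit, and 100% of summits gave a whole number (tolerance 0.001, -log10 scale). The smallest background of a library, 2.44 to 4.55 fragments, was its depth, and read totals are not known. Log2 pileup over depth at the highest summit was set relative to the library's own median of the 33368 regions. It was tested with limma 3.58.1 in R 4.3.3 (group means over 12 libraries, mean-dependent prior, two-sided, Benjamini-Hochberg over 33368 regions). The script was tested on simulated data. Starts of 19671 protein-coding and 9533 lncRNA genes were placed from RefSeq (GRCm38.p6), 2180 of the former with the strand of the deposited tables. The gene of a region is the one whose start it holds, else the one around its centre, else the nearest start. Named regions were the 20 widest, the extremes of summits, signal and distance, at most 10 calls per direction, list genes (at most 6 per list) and those at the width limit, and others named were chosen after their values were seen. A few named by this rule are not reported here. Alternatives covered width, peak joining, q, scaling, the summit measure, libraries and blocks.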

Additional observations from a re-analysis of the deposited data

How the results depend on the processing

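At a width limit of 2000 bp there were 3587 regions, and at 3000 bp 408. The share with a coding start was then 44.0% and 57.8%, the median number of summits 2.42 and 3.75, and the ratio of the median signal of wide to all common regions 1.86 and 2.43, where 2500 bp gave 2.16. Peaks at a -log10 q of 4 or more gave 1.99. The regions called by limma at those 2 limits numbered 4 of 3587 and 0 of 408 in Vehicle against Day0. They numbered 201 and 19 in LSD1i, and 229 and 21 in Combo. Of all 33368 regions, limma called 32 opened and 4 closed in Vehicle against Day0. It called 1167 and 801 in LSD1i, and 1663 and 1181 in Combo. Scaling by depth alone called 0 in Vehicle against Day0, 1 in LSD1i and 5 in Combo. Over all regions it called 0 opened and 0 closed, 36 and 7, and 513 and 9 in these. With it the wide medians were 0.20 in Vehicle against Day0, -0.31 in LSD1i, -0.49 in 6MP, -0.23 in CER and 0.0745 in Combo. The medians over all regions were 0.21, -0.23, -0.46, -0.26 and 0.12 in the same order. Centring by intensity called 2 in Vehicle against Day0 and 5 in CER, with medians of -0.0302 in LSD1i and -0.0282 in Combo. Over all regions it called 28 opened and 1 closed in Vehicle against Day0, and 86 and 190 in CER. Its medians over all regions were -0.00411 in LSD1i and -0.00449 in Combo. Quantile normalisation called 2 in Vehicle against Day0 and 2 in CER, with medians of -0.0442 in LSD1i and -0.0399 in Combo. Over all regions it called 33 opened and 1 closed in Vehicle against Day0, and 30 and 70 in CER. Its medians over all regions were -0.0134 in LSD1i and -0.0245 in Combo. The mean over the summits called 0 in Vehicle against Day0, 25 in LSD1i and 41 in Combo. The deposited fold ratio called 0, 0 and 1 there, with medians of 0.0486 in LSD1i, 0.19 in 6MP and -0.0549 in Combo. The 4 libraries of Vehicle and Day0 alone gave 0. With the library-name letter as a block 9 were called in CER and 117 in Combo. Over all regions that block gave 408 opened and 507 closed in CER, and 2204 and 1930 in Combo. Leaving out each library in turn gave 0 to 70 calls in Vehicle against Day0, 12 to 106 in LSD1i, 0 to 35 in CER and 27 to 65 in Combo, and medians of -0.15 to 0.0935 in 6MP. A lone library left in a group is assumed to vary like the other groups. The causes were not tested. Deviations of same-numbered libraries correlated between -0.34 and 0.25 over pairs of groups. The signs went both ways, and whether the numbers pair the libraries was not settled by these values. A replicate block by number gave 71 calls in LSD1i, 76 in Combo and 1 in Vehicle against Day0. Over all regions it gave 1188 opened and 796 closed, 1660 and 1147, and 34 and 7 in these. Read totals are not known, which limits any statement on depth.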
